A study of Mus musculus with 3 samples.

Results

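The genes described here are 45 cell cycle genes in regulatory T cells, a CD4 T cell type that holds immune responses in check, out of 55536 mouse genes measured. They were taken from a fixed list by symbol, each symbol matched 1 gene, and they fall into 3 roles. The G1 control genes number 17, the replication genes 13 and the mitosis genes 15. Polyadenylated RNA was sequenced in 3 libraries, which the labels give as technical replicates 1, 2 and 3 of biological replicate 1. They hold primary cells of a 4 month old adult male of the cross of Foxp3CreERT2 and Rosa26YFP, in which the locus of Foxp3, the transcription factor that defines these cells, drives an inducible Cre and the ubiquitous Rosa26 locus carries a fluorescent reporter. All libraries share this genotype, and no agent is named in the labels. There is 1 group, so no conditions are compared. Every SD and p-value here describes variation between libraries that the labels give as technical replicates of 1 biological replicate.

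A cell enters the cycle when D cyclins activate the kinases CDK4 and CDK6, which phosphorylate the retinoblastoma protein and free E2F factors. CDK inhibitors hold this step back. E2F factors then switch on cyclin E and the genes that load and run the replication machinery. Genes of mitosis are switched on later, in G2, and in resting cells the DREAM complex keeps both sets low. Most regulatory T cells of an adult mouse are resting, and a fraction divides.

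The 3 libraries held 9299054, 9188612 and 8284381 expected counts (reads assigned to a gene by the authors' quantifier). Levels are in TPM, which corrects for gene length and library size, so that different genes can be set side by side. All 6 regulatory T cell markers reached 1 TPM in every library, and so did all 6 T cell markers. The labels give bone marrow haematopoietic cells as origin, and none of 5 progenitor markers reached 1 TPM in every library, with Gata2 listed at 0 in each. Library 1 stood apart by gene length. Across 7874 protein-coding genes its deviation from the mean of the libraries had a Spearman correlation with length of -0.671, against 0.471 and 0.578 in libraries 2 and 3; across the 45 cell cycle genes the values were -0.536, 0.365 and 0.372. Erythroid markers summed to 1685, 9.13 and 1497 TPM in libraries 1, 2 and 3, with Klf1 and Epor under 1 TPM in each. The 7 B cell markers, all detected, summed to 164, 134 and 215 TPM. Plasma cell markers (5 of 7 detected) summed to 149.7, 77.5 and 152 TPM, myeloid markers (3 of 8, Elane at 0) to 40.2, 15.7 and 40.6 TPM and CD8 T cell markers (2 of 4) to 18.4, 16.8 and 22.7 TPM.

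Promoters of 6 genes are printed because they hold, or lack, the letters in which the roles differed. Of the 45 genes 36 matched the RefSeq promoter table (build GRCm38.p6, which is mm10), which gives 250 bases before to 50 after each start. The letters searched on both strands were TTTGGCGC and TTTCGCGC for E2F factors, TTTGAA and TTCGAA for the cell cycle genes homology region (CHR) that the DREAM complex and B-MYB with FOXM1 use, and CCAAT for the factor NF-Y. Matches are in capitals, in the orientation of the gene. An opposite-strand match reads as the reverse complement, and matches that overlap merge into 1 run of capitals.
Mcm6, chr1:128359656-128359955, minus strand: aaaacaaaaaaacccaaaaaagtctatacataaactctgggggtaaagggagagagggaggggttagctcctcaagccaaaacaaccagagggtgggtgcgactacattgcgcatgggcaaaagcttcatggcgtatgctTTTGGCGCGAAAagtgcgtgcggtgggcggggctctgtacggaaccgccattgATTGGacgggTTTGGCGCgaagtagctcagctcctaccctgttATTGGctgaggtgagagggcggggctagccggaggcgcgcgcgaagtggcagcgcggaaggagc
Mcm5, chr8:75109259-75109558, plus strand: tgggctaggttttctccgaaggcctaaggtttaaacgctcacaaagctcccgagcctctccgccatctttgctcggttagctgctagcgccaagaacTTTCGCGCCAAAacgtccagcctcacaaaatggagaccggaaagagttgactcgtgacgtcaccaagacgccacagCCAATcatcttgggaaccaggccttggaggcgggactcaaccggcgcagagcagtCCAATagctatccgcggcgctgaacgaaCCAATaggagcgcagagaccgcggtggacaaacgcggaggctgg
Ccnb2, chr9:70421505-70421804, minus strand: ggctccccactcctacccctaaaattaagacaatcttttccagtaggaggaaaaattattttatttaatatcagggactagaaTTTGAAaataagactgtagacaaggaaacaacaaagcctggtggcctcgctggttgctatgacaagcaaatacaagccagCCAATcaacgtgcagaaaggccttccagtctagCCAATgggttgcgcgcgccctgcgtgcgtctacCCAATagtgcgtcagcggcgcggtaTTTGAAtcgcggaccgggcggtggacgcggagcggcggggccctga
Cdc20, chr4:118437294-118437593, minus strand: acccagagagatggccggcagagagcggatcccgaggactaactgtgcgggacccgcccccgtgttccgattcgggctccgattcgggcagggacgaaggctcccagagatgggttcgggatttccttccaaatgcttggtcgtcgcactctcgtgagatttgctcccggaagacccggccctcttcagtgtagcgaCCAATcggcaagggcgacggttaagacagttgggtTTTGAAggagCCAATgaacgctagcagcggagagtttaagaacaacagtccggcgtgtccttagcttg
Plk1, chr7:122159185-122159484, plus strand: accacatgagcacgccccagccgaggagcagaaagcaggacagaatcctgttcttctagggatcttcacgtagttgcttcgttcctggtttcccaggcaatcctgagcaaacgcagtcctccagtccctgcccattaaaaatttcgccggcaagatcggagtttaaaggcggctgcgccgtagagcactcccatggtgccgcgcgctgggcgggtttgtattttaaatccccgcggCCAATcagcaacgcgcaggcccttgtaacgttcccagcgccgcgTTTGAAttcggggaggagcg
Cdk4, chr10:127063285-127063584, plus strand: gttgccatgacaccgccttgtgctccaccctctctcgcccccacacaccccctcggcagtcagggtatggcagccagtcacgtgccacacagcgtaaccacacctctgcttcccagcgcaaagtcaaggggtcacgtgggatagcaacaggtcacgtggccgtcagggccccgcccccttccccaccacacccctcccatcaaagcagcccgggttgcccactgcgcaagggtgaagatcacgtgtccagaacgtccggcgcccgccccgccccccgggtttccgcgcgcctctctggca
The replicative helicase genes Mcm6 and Mcm5 carried E2F and CCAAT letters, while the mitosis genes Ccnb2, Cdc20 and Plk1 carried CHR and CCAAT letters, and the Cdk4 window held none of them. E2F letters stood in 5 of 11 replication genes matched, in 1 of 13 mitosis genes and in 1 of 12 G1 control genes, against 0.929% of all 27025 genes of the table and 1.92% of the 8061 detected protein-coding genes in it. Counted by promoter, 0.813% of all 32851 held them. CHR and CCAAT letters stood in the same promoter in 10 of 13 mitosis genes, 2 of 11 replication genes and 2 of 12 G1 control genes, against 8.61% of all genes of the table and 7.27% of detected protein-coding genes. CCAAT letters stood in 12 of 13 mitosis, 8 of 11 replication and 7 of 12 G1 control genes, against 41.1% of all genes of the table. CHR letters, with or without CCAAT, stood in 19.2% of all promoters and CCAAT in 37.4%. Ccnd1, Ccnd2, Rb1, E2f4, Ccne2, Mcm4, Gins2, Ccna2 and Aurkb were not matched. A match describes letters in this window and is not a measured site, and a window without a match need not lack a site. RefSeq starts can differ from those of the gene tables: the Mcm5 window ends at 75109558, before the GENCODE M21 start of Mcm5 at 75109569. The windows of E2f1 and Cdc6, which held no E2F letters, lie wholly inside these genes as GENCODE M21 gives them. Among others, so do the windows of Mcm7, which does have E2F letters. The E2f2 window with E2F letters ends at 136172323, before the GENCODE M21 start of E2f2 at 136172394.

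The first question was how the level of cell cycle genes differs by role. Replication genes stood highest, G1 control genes lay between and spread most, and mitosis genes were lowest. The median over the 13 replication genes was 45.7, 57.7 and 50.7 TPM in libraries 1, 2 and 3, or 51.4 ± 6.04 (SD, n = 3). Over the 15 mitosis genes it was 7.34, 9.01 and 7.13 TPM, or 7.83 ± 1.03, and over the 17 G1 control genes 12.1, 15.5 and 17.5 TPM, or 15.0 ± 2.75. The replication median was the highest in every library, but single genes of the roles overlapped: Cdc6 at 5.41 to 8.04 TPM lay below several mitosis genes, and Ccnd2 and Cdk4 lay above all replication genes. The replication median was 6.23, 6.41 and 7.11 times the mitosis median (6.58 ± 0.463), and 3.98, 4.14 and 4.88 times when the mean of log2(TPM + 1) replaced the median. The G1 control median was 1.64, 1.72 and 2.45 times the mitosis median (1.94 ± 0.446), and this order depended on the table: with the authors' M4 gene counts per length the ratio was 0.571, 0.771 and 1.05. Per gene, 13 of 13 replication and 15 of 15 mitosis genes reached 1 TPM in every library, as did 15 of 17 G1 control genes, where 45.9% of all protein-coding genes did. These 3 technical libraries allow no test of the roles against each other.

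**Figure D1:**
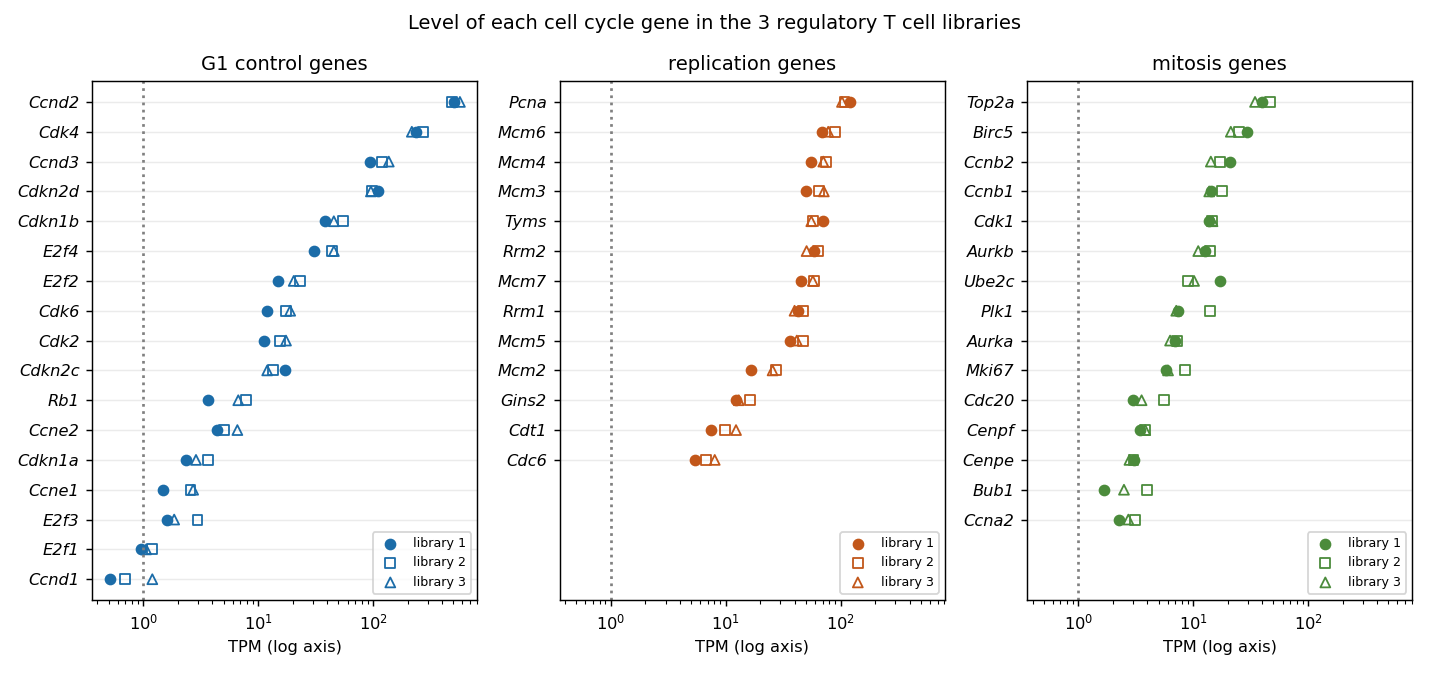
TPM (log axis) of each cell cycle gene in libraries 1, 2 and 3, in 3 panels by role, ordered by mean; the dotted line marks 1 TPM. Replication genes lie from 5.41 to 122 TPM, mitosis genes from 1.68 to 46.5 TPM, and G1 control genes from 0.510 to 571 TPM.

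Among G1 control genes the D cyclins were led by Ccnd2 (ENSMUSG00000000184.12, mm10 chromosome 6, 127125162 to 127152193), at 505, 486 and 571 TPM, the highest of all 45 genes. Ccnd3 followed at 93.7, 119 and 137 TPM, and Ccnd1 had 0.510, 0.690 and 1.20 TPM. Ccnd2 thus took 81.7% ± 2.28 (SD, n = 3) of the summed D cyclin TPM, Ccnd3 18.2% ± 2.25 and Ccnd1 0.123% ± 0.0427. Ccnd1 rested on 9, 14 and 27 counts, and 1100 of its exonic bases are shared with LTO1, a gene on the opposite strand at 32.1 TPM; no source used here says whether reads were counted by strand. The order Ccnd2, Ccnd3, Ccnd1 was the same in every library, with no overlap.

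Of the partner kinases, Cdk4 stood at 235, 274 and 218 TPM, and Cdk6, its close relative, at 12.1, 17.6 and 19.0 TPM. Cdk4 exceeded Cdk6 by 19.5, 15.5 and 11.4 times in TPM, but the counts were nearer, with 1830, 1707 and 1328 for Cdk4 and 1087, 1232 and 1295 for Cdk6, whose mean length in the table is 10935 bases against 1126 for Cdk4. Cdk2, the kinase of cyclins E and A, had 11.3, 15.5 and 17.5 TPM and overlapped with Cdk6. Cdk4 shares 641 exonic bases with Tspan31 on the opposite strand, at 85.4 TPM.

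The inhibitors were led by Cdkn2d (p19Ink4d, an inhibitor of CDK4 and CDK6) at 112, 98.1 and 95.9 TPM, followed by Cdkn1b (p27Kip1, which inhibits CDK2 complexes) at 37.9, 55.0 and 45.6 TPM. Cdkn2c (p18Ink4c) had 17.1, 13.5 and 12.0 TPM and Cdkn1a (p21Cip1, a p53 target) 2.35, 3.67 and 2.88 TPM. Cdkn2d took 61.7% ± 4.22 of their summed TPM and Cdkn1b 28.0% ± 5.03, and the order of the 4 genes was the same in every library. The other inhibitors of these families had means under 1 TPM, with Cdkn1c at 0.673 ± 0.372, Cdkn2b at 0.470 ± 0.113 and Cdkn2a listed at 0 in each library.

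Downstream, E2f4, the main repressor E2F of resting cells, had 30.8, 44.4 and 45.7 TPM and the activator E2f2 14.8, 23.4 and 20.4 TPM. The activators E2f3 and E2f1 had 2.15 ± 0.724 and 1.07 ± 0.115 TPM, so that E2f4 exceeded E2f1 by 37.5 ± 5.52 times. E2f1 rested on 20, 21 and 17 counts. Rb1, the retinoblastoma gene, was listed at 3.64, 7.91 and 6.72 TPM while its counts were 117, 130 and 129; the length assigned to it was 4154, 2561 and 3269 bases, and its leading transcript Rb1-201 took 86.5%, 50.1% and 64.5% of its TPM. Rb1 shares 488 exonic bases with Rcbtb2 (44.4 TPM) and 408 with Lpar6 (33.4 TPM), both on the opposite strand. Its summed TPM in the second transcript table was 18.5, 15.9 and 24.0. The E cyclins that open S phase were low, Ccne2 at 4.36, 5.09 and 6.60 TPM and Ccne1 at 1.49, 2.58 and 2.72 TPM, with Ccne2 above Ccne1 in every library.

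Replication genes were led by Pcna, the sliding clamp of DNA polymerase (ENSMUSG00000027342.14, mm10 chromosome 2, 132249162 to 132253314), at 122, 108 and 103 TPM. The 6 subunits of the MCM helicase, which opens the DNA, followed with Tyms and both Rrm genes among them. Mcm6 had 69.3, 90.1 and 78.2 TPM, Mcm4 55.5, 75.2 and 70.8, and Mcm3 49.7, 64.4 and 71.6. Mcm7 had 54.0 ± 7.19 TPM (SD, n = 3), Mcm5 41.6 ± 5.24 and Mcm2 23.2 ± 5.75. The subunits form a ring with 1 copy of each, and Mcm6 RNA exceeded Mcm2 RNA by 4.16, 3.29 and 3.05 times. Mcm2 was the lowest subunit in each library, at 7.03% ± 0.803 of the summed MCM TPM, and Mcm6 the highest at 24.3% ± 1.45.

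Of the factors that load this helicase, Cdc6 and Cdt1 were lower than each of its subunits in every library. Cdc6, which acts at origins, had 5.41, 6.69 and 8.04 TPM, and its partner Cdt1 had 7.50, 9.95 and 12.3 TPM. Gins2, part of the active helicase, had 12.3, 16.2 and 13.0 TPM, below Mcm2 in every library; 2758 of its exonic bases are shared with Gse1 on the opposite strand, at 1.21 TPM. Both subunits of ribonucleotide reductase, which makes deoxynucleotides, were near each other, Rrm2 at 58.3, 64.2 and 50.7 TPM and Rrm1 at 42.6, 47.1 and 39.8 TPM, with a ratio of 1.33 ± 0.0541. Tyms, thymidylate synthase, had 70.4, 57.7 and 55.7 TPM, most of it on transcripts that are not annotated as coding.

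Mitosis genes were led by Top2a, the topoisomerase that untangles chromosomes, at 39.6, 46.5 and 34.6 TPM. Birc5, which encodes survivin of the chromosomal passenger complex, had 29.7, 24.9 and 21.3 TPM. The B cyclins stood at 20.8, 17.2 and 14.3 TPM for Ccnb2 and 14.2, 17.8 and 13.8 TPM for Ccnb1, and overlapped with each other. Their kinase Cdk1 had 13.7, 14.7 and 14.7 TPM, or 0.0598 ± 0.00715 times Cdk4. Cyclin A, Ccna2, was far lower at 2.28, 3.11 and 2.73 TPM from 38, 60 and 47 counts, with 510 exonic bases shared with Exosc9 on the opposite strand, at 38.8 TPM, and Ccnb2 exceeded it by 9.13, 5.52 and 5.22 times.

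Of the mitotic kinases, Aurkb, the passenger kinase, had 12.6, 14.1 and 11.1 TPM and Aurka, of the spindle poles, 6.94, 7.25 and 6.30 TPM, with Aurkb above Aurka in every library. Plk1 had 7.34, 14.1 and 7.13 TPM, and the checkpoint kinase Bub1 1.68, 3.98 and 2.50 TPM. Both were highest in library 2. Ube2c and Cdc20, which drive destruction of cyclins by the anaphase-promoting complex, had 17.2, 9.01 and 10.2 TPM and 2.98, 5.58 and 3.56 TPM. Ube2c was highest in library 1. Cdc20 was highest in library 2 in TPM, but its counts were 39, 41 and 28, and the length assigned to it was 1793, 1245 and 1441 bases. By the chi-square test between libraries given below, Cdc20 did not differ (adjusted p = 0.542). Mki67, the proliferation antigen Ki-67, had 5.77, 8.44 and 6.05 TPM, and the large kinetochore genes Cenpf and Cenpe had 3.71 ± 0.205 and 2.96 ± 0.151 TPM. Pcna exceeded Mki67 by 21.1, 12.8 and 17.0 times and Mcm6 exceeded it by 12.0, 10.7 and 12.9 times. Not all replication genes exceeded all mitosis genes: Cdc6, Cdt1, Gins2 and Mcm2 lay below Top2a in every library.

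Other genes of the same pathways showed the same order for replication and mitosis. Of 40 other replication genes 39 were detected, with a median of 19.3, 22.4 and 19.6 TPM; the highest were Rpa1 (228 ± 30.1 TPM), a subunit of the single-strand binding protein, the clamp loader subunit Rfc2 (130.4 ± 13.7) and Slbp (91.5 ± 6.82), which binds histone mRNA. The lowest were Chaf1a at 0.660 ± 0.260 and the origin gene Orc1 at 1.93 ± 0.579 TPM. Of 40 other mitosis genes 39 were detected, with a median of 8.19, 11.2 and 7.00 TPM. They were led by the condensin gene Smc4 at 337 ± 28.9, securin, Pttg1, at 155 ± 17.2 and Hjurp at 50.9 ± 14.0 TPM. At their lower end stood the kinases Nek2 at 1.66 ± 0.927 and Ttk at 2.52 ± 0.666 and the cytokinesis gene Anln at 1.94 ± 1.25 TPM. In each library the median of the other replication genes was above that of the other mitosis genes.

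Of 20 other G1 and E2F regulators 17 were detected, with a median of 7.475, 12.2 and 10.5 TPM, or 10.1 ± 2.40. This median lay below that of the other mitosis genes in library 1 and above it in libraries 2 and 3. These regulators were led by Myc at 142 ± 24.4 TPM and by the CDK-activating kinase genes Ccnh at 84.4 ± 5.12 and Cdk7 at 63.5 ± 4.44 TPM. The DREAM and MuvB list, which holds E2f4 and shares E2f5, Rbl1, Rbl2, Tfdp1 and Tfdp2 with the previous list, had 12 of 13 genes detected. It was led by the MuvB core genes Rbbp4 at 195 ± 9.43 and Lin37 at 84.8 ± 3.42, which repressing and activating complexes share, and by Rbl2, the p130 pocket protein of the repressing complex, at 47.9 ± 15.1 TPM. The activators that bind the MuvB core in dividing cells were low, with Mybl2 at 1.98 ± 0.610 and Foxm1 at 0.840, 1.53 and 2.37 TPM, and E2f5 stood at 2.31 ± 0.129 TPM.

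**Figure D2:**
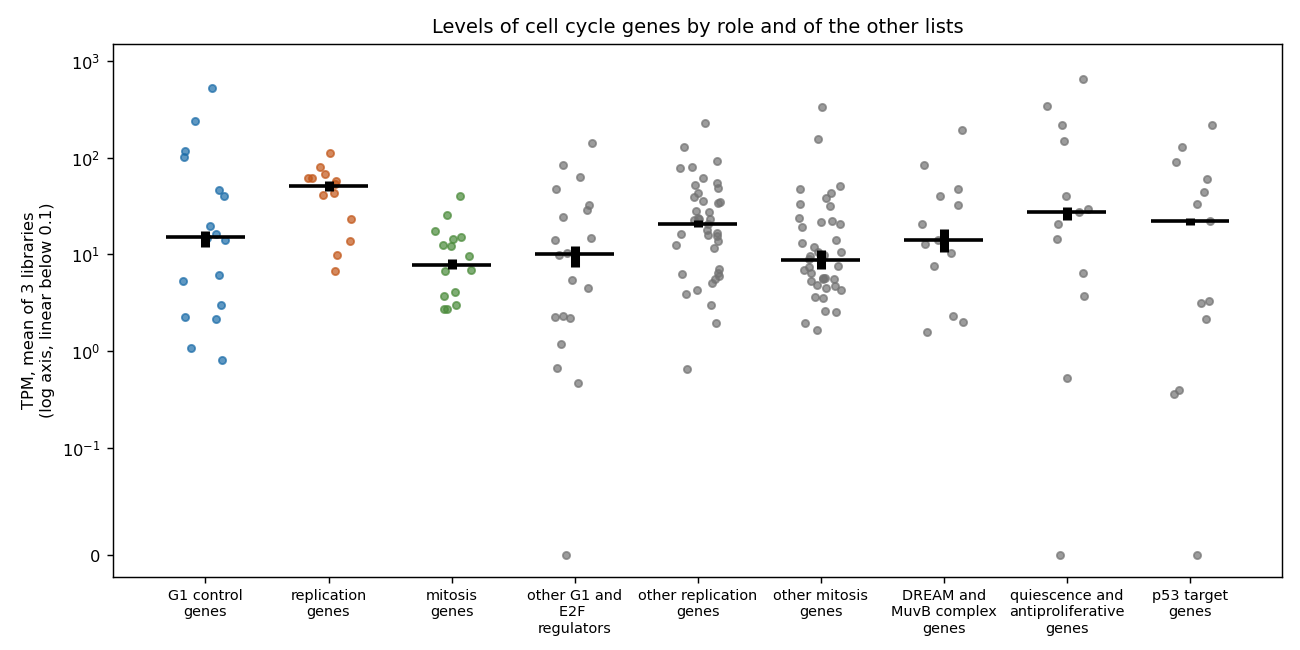
Mean TPM over the 3 libraries of each gene (points, log axis that is linear below 0.1), for the 3 roles (coloured) and the other lists (grey); the horizontal bar is the mean of the list's median over libraries and the thick vertical bar its range over libraries. The median is 51.4 TPM for replication genes, 15.0 for G1 control genes and 7.83 for mitosis genes, and 20.4 and 8.80 for the lists of other replication and other mitosis genes.

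The second question was how far cell cycle genes differed between the libraries. A chi-square homogeneity test was run on rounded expected counts against totals scaled with edgeR's TMM factors, with p-values adjusted by Benjamini-Hochberg over 13071 genes. Of the 45 genes 25 differed, or 55.6%, where 54.3% of all genes tested did. The share is near the background under this scaling, and 59.5% of detected protein-coding genes tested differed. With counts scaled within bins of gene length 24 of 45 genes differed, or 53.3%. There 44.5% of all genes and 47.9% of detected protein-coding genes did. By role 11 of 17 genes differed for G1 control, 5 of 13 for replication and 9 of 15 for mitosis under TMM totals. Of these, Ccnd1 and Ube2c differed by 2-fold or more, 2 of 45 genes against 8.78% of all genes tested. Without library 1, 13 of 45 genes differed (17.5% of all genes), without library 2 19 (49.0%) and without library 3 16 of 44 tested (46.3%).

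Mitosis genes were lowest in library 3. In scaled counts 12 of 15 had their lowest value there, where 31.5% of all genes tested did, while 2 were lowest in library 1 (40.7%) and 1 in library 2 (27.8%). Their median deviation in library 3 was -0.23 on the log2 scale, against -0.0057 for all protein-coding genes tested. Of the 15 mitosis genes 7 both differed and were lowest in library 3, as did 15.7% of all genes tested. With scaling by length bins 13 of 15 were lowest in library 3 (30.9% of all genes) and the median deviation was -0.21. The 40 other mitosis genes, a list that shares no gene with the first, had 29 members lowest in library 3 under either scaling and a median deviation of -0.23 in both. Replication genes had 6 of 13 lowest in library 3, with a median deviation of -0.04, and G1 control genes 6 of 17, with 0.04. Of the 40 other replication genes 20 were lowest in library 3, and 17 under length bins, with a median deviation of -0.058 under TMM totals. Of these genes 13 both differed and were lowest there, so low values in library 3 were not confined to mitosis genes. No test compared the roles. Summed B cell markers (215 TPM in library 3, 134 to 164 elsewhere) and CD8 T cell markers (22.7 against 16.8 to 18.4) were highest in library 3. Plasma cell markers (152 against 77.5 to 149.7) and myeloid markers (40.6 against 15.7 to 40.2) were highest there too, but close to library 1. Their genes went both ways: Jchain, Mzb1, S100a8 and S100a9 were higher in library 1 than in library 3, and Xbp1 and Lyz2 were lower. Summed T cell markers, at 11243, 10343 and 9337 TPM in libraries 1, 2 and 3, were lowest in library 3. The regulatory T cell sum, at 2920.0, 3156 and 2882 TPM, was lowest there too, but close to library 1. Of its genes only Izumo1r, at 1315, 1434 and 1188 TPM, was lowest in library 3. Foxp3 (27.6, 43.7 and 47.1 TPM) and Il2ra (211, 332 and 369 TPM) were highest there. Erythroid markers summed to 1497 TPM in library 3, 1685 in library 1 and 9.13 in library 2. The part of these in the result was not tested.

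**Figure D3:**
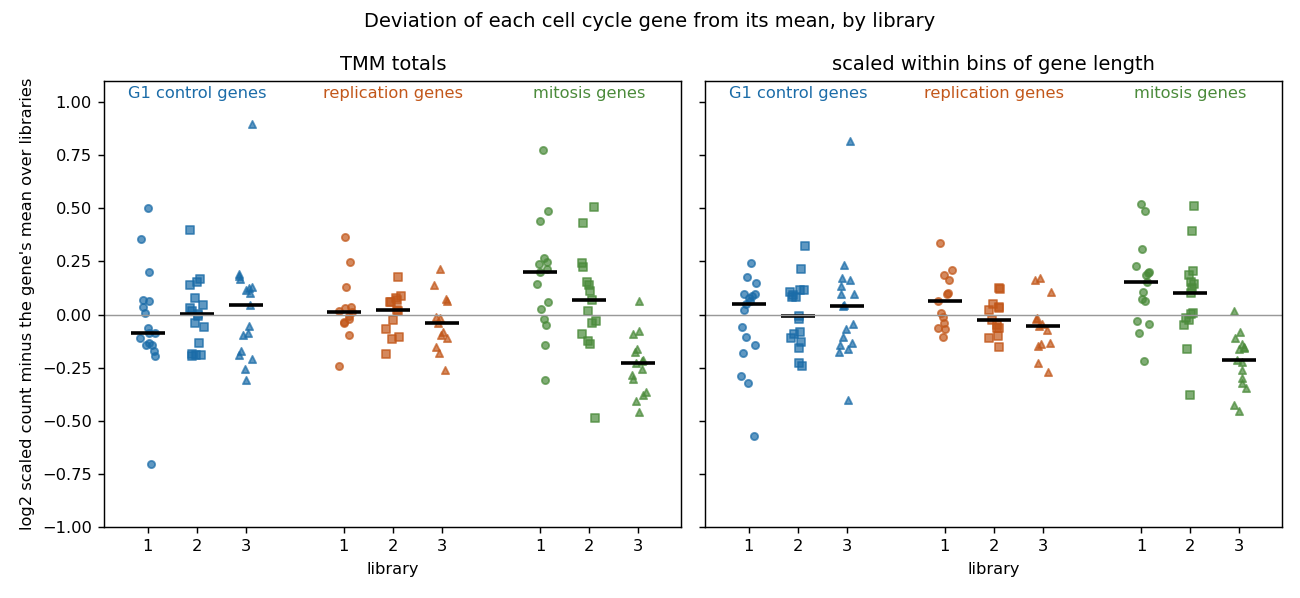
log2 scaled count of each cell cycle gene minus its mean over the 3 libraries (points; bars are medians), by role and library, with TMM totals on the left and scaling within bins of gene length on the right. In library 3 the mitosis genes lie lowest, with medians of -0.23 and -0.21.

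Single mitosis genes differed in which library was highest. Plk1 had scaled counts of 121, 178 and 91.1 in libraries 1, 2 and 3, a 1.96-fold range (exact 95% interval of the ratio 1.51 to 2.55, chi-square adjusted p = 1.33e-06). Top2a had 887, 949.5 and 736 (1.29-fold, 1.17 to 1.42), Mki67 377, 487 and 394 (1.29-fold, 1.13 to 1.48) and Bub1 44.4, 61.0 and 33.9 (1.80-fold, 1.16 to 2.84). These genes were highest in library 2, except that Top2a was highest in library 1 under length bins. The other mitosis genes that differed, Ube2c, Birc5, Ccnb2, Ccnb1 and Cenpe, were highest in library 1. They include short genes such as Ube2c, with a mean length of 967 bases, and the long gene Cenpe, with 7910. Ube2c had 111, 46.0 and 52.99 scaled counts (2.42-fold, 1.71 to 3.45), Ccnb2 230.1, 150.1 and 127 (1.81-fold, 1.44 to 2.28) and Birc5 198, 132 and 118 (1.68-fold, 1.33 to 2.14). Scaled within length bins, Ube2c still differed by 1.87-fold and Ccnb2 by 1.49-fold, while Birc5 did not pass the test (adjusted p = 0.181). Cenpe differed by 1.36-fold with TMM totals (1.09 to 1.71, chi-square adjusted p = 0.0202) and by 1.76-fold under length bins. With library 1 left out, Plk1, Top2a, Mki67, Bub1 and Ccnb1 were the mitosis genes that differed.

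In the replication role Pcna had 1264, 860.4 and 865 scaled counts (1.47-fold, 1.35 to 1.60) and Rrm2 933, 795 and 655 (1.42-fold, 1.28 to 1.58), both highest in library 1 under either scaling. Most MCM genes lay close between libraries. Mcm7 had a 1.04-fold range (0.948 to 1.15), Mcm4 and Mcm3 1.07-fold, and none of Mcm3, Mcm4, Mcm5 and Mcm7 passed the test, whereas Mcm2 (1.34-fold) and Mcm6 (1.11-fold) did. Under length bins Mcm2 did not pass (adjusted p = 0.0706) and Mcm4 and Mcm5 did (adjusted p = 3.71e-07 and 0.0144). Among G1 control genes Ccnd2 had 8326, 7417 and 8713 scaled counts, a 1.17-fold range (1.14 to 1.21) that passed the test. Cdkn2d was 1.46-fold (1.33 to 1.60) and Cdkn2c 1.76-fold (1.31 to 2.38) higher in library 1 than in their lowest library. Under length bins Cdkn2c did not pass (adjusted p = 0.162). Ccnd1 had 9.08, 13.1 and 28.6 scaled counts, a ratio of 3.15 with a wide interval of 1.44 to 7.61.

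The third question was which transcripts carried these levels. The leading transcript, that with the highest mean TPM, was protein-coding for 41 of 45 genes and led in every library for 38. The second transcript table named the same leader for 37 genes. All 15 mitosis genes were led by the same protein-coding transcript in each library, which took a median of 82.9% of the gene's TPM. Cenpe and Ube2c had 100% on 1 of their annotated transcripts in each library, and Ccnb2 has 1 annotated transcript.

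The 4 genes with a leading transcript of another type were Ccnd3, Cdk4, Gins2 and Tyms, of which Cdk4 alone had the same leader in every library. Cdk4-209, annotated as a retained intron of 468 bases, took 34.1%, 32.8% and 30.5% of Cdk4, and the coding transcripts together 49.0%, 43.0% and 49.5%. Ccnd3 was led by the retained intron Ccnd3-203 and had 35.4%, 46.0% and 30.3% on coding transcripts. Gins2 was led by the retained intron Gins2-204, with 39.0%, 34.9% and 50.6% on coding transcripts, so that a coding transcript led in library 3. For Tyms, where Tyms-205 is annotated as a target of nonsense-mediated decay, coding transcripts took 10.6%, 8.39% and 8.53%, or 7.48, 4.84 and 4.75 TPM. Counting coding transcripts alone, the replication median was 40.4 TPM and its ratio to the mitosis median 4.80, 5.08 and 5.96, a setting chosen after seeing the data. Top2a had 47.7%, 56.8% and 58.0% on its leading coding transcript. Some splits moved between libraries: Ccne2-201 took 0%, 88.2% and 54.5% of Ccne2 and Mcm5-205 22.0%, 88.8% and 58.8% of Mcm5, while the summed TPM of Mcm5 was 36.3, 46.8 and 41.6.

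**Figure D4:**
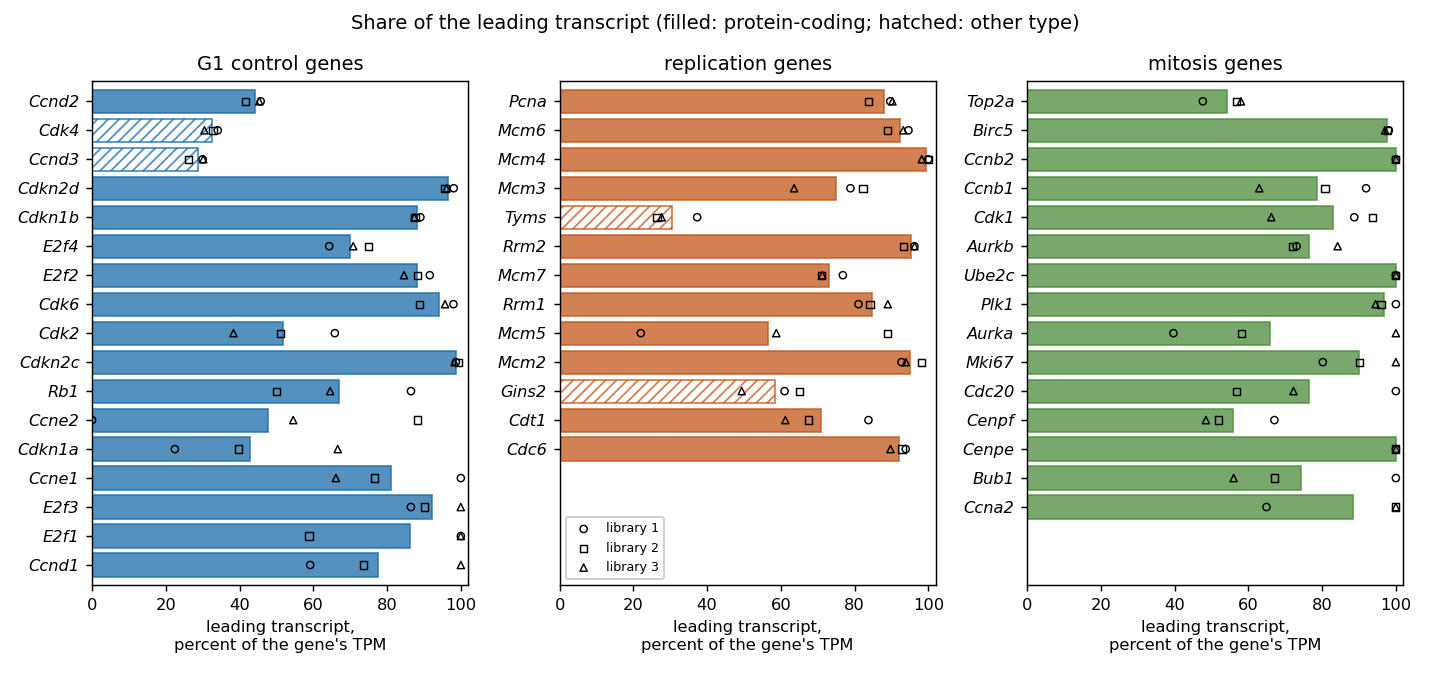
Share of the leading transcript in the gene's TPM, in percent, for each cell cycle gene by role (bar: mean of 3 libraries; symbols: libraries 1, 2 and 3; hatched bars: leading transcript not annotated as protein-coding). The 4 hatched bars are Cdk4, Ccnd3, Tyms and Gins2, and Ccne2 and Mcm5 spread most widely between libraries.

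The fourth question was whether the deposited tables gave the same levels. Centred on the median gene, the second transcript table differed from the main table by more than 2-fold in every library for 1 of 40 genes compared. Rb1 was more than 2-fold above it in every library (3.38% of all genes compared were) and no gene was below (0.269%). Before centring, the second table's median ratio to the main table was 0.529, 0.577 and 0.576. The M4 gene counts, made with another annotation, differed by role. The median log2 ratio to the main table was -0.27 for G1 control, 0.39 for replication and 0.53 for mitosis genes. Cdk6, Cdkn1b and E2f2, 3 of 44 genes compared, were more than 2-fold lower in every library, against 12.6% of all genes compared, and none was more than 2-fold higher (1.11%). Cdk6 had 31, 72 and 44 counts there and 1087, 1232 and 1295 in the main table, and 8.49% of its leading transcript of 11525 bases is coding. Across 41 cell cycle genes, which are not independent replicates, the log2 ratio had a Spearman correlation of 0.813 with the coding share of the leading transcript, and of 0.698 across 8859 protein-coding genes. Mki67, whose leading transcript is 94.7% coding, had 684, 919 and 659 counts against 373, 519 and 372. Ccnd2 departed from this trend, with 5131, 4405 and 4960 counts against 8248, 7905 and 8221. Its leading transcript of 627 bases is 90.6% coding, but took 44.2% ± 2.26 of the gene's TPM. In the second transcript table it took 16.2% ± 2.11 and another transcript led, so this coding share describes only part of Ccnd2. For Cdk6, Cdkn1b and E2f2 the level thus depended by more than 2-fold in every library on which table was read. Other genes depended on it too. Averaged over libraries, the log2 ratio was -1.15 for E2f3, -1.06 for Gins2, -1.05 for Ccnd3 and -1.02 for Ccnd2. These genes were not more than 2-fold lower in every library.

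**Figure D5:**
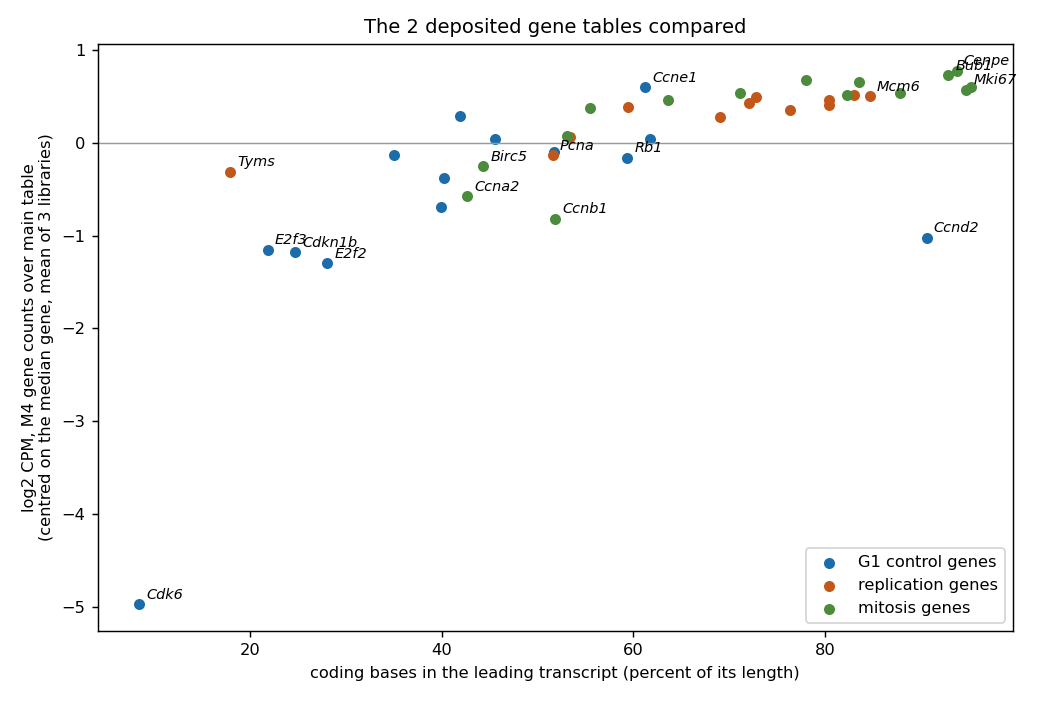
log2 CPM (counts scaled by library total) in the M4 gene counts over the main table, centred on the median gene and averaged over 3 libraries, against the coding share of the leading transcript in percent, for 41 cell cycle genes coloured by role. Genes with a low coding share lie lower, down to Cdk6 at 8.49% coding, and Ccnd2 at 90.6% coding lies off the trend.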

How the data were processed

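Several kinds of table were deposited for each library, all on mm10. In the authors' gene table the values are FPKM, TPM and expected counts; a transcript table gives TPM and each transcript's percent of its gene's TPM, from an alignment to GENCODE M21, per the deposited readme. A second transcript table with estimated counts and TPM came from reads and a transcript index, per the deposited readme. Whole-number counts per gene for GENCODE M4 were deposited too. The sources used here do not name the aligner, quantifier or counter.

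Symbols came from the second transcript table. Entries that are no mouse gene (0.117% to 0.135% of counts) were left out. Detection meant at least 1 TPM in each library. For the test expected counts were rounded to whole numbers; genes with 30 or more counts were tested by chi-square with TMM totals (edgeR 4.0.16, R 4.3.3), Benjamini-Hochberg adjustment and a threshold of 0.05, and the test was tested on simulated data. Length bins were 10 bins of gene length, each centred on the median of its well-covered genes. Ratio intervals are exact 95% binomial intervals for the highest against the lowest library of each gene. They cover counting error only and make no allowance for choosing these libraries from the same counts. Alternatives were DESeq2 1.42.0 size factors, other filters, tables and summaries, and leaving out each library. All 45 genes may be named, and of each other list the 3 highest and 3 lowest by mean TPM; 1 of these is not reported here. Genes and lists were chosen with earlier results of these data known. Python 3.11.15, numpy 2.4.6, scipy 1.17.1 and pandas 2.3.3 were used.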

Additional observations from a re-analysis of the deposited data

How the results depend on the processing

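The number of cell cycle genes detected was 33 at 5 TPM and 45 at 0.5 TPM, and 40 to 44 with the other values, tables and subsets of libraries. The order of the medians, replication above G1 control above mitosis, held under every alternative for levels except the M4 gene counts per length, where the G1 control to mitosis ratio was 0.798; the cause was not tested. The medians for G1 control, replication and mitosis genes were 11.7, 40.3 and 6.15 in FPKM, 9.18, 24.3 and 4.55 TPM in the second transcript table and 10.7, 79.6 and 13.5 in the M4 counts per length. The replication median was 43.8 with posterior mean TPM, 37.5 with the mean of log2(TPM + 1) and 40.4 with protein-coding transcripts only. The replication to mitosis ratio was 4.33 with the mean of log2(TPM + 1), 5.92 in the second transcript table, 5.90 in the M4 counts and 5.28 with protein-coding transcripts only. The G1 control to replication ratio was 0.442, 0.377 and 0.137 with the first 3 of these. The number of cell cycle genes that differed between libraries was 23 to 29 under other scalings, filters and the M4 counts. With no minimum of counts 23 of 45 differed (28.2% of all genes tested), and in the M4 counts 28 of 44 did (63.8%). With total counts 29 of 45 differed (56.2%), and with DESeq2 size factors 25 did (54.3%). With 1 library left out, where only 2 libraries enter, 13 to 19 differed, beside 17.5% to 49.0% of all genes. No paired analysis was possible because there is 1 group. Counts under 30 per library, as for Ccnd1, E2f1, Ccne1 and Cdkn1a, limit what could be seen for these genes.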

Other observations

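Genes that hold T cells in a resting state were detected beside the cell cycle genes. Of 13 quiescence and antiproliferative genes 11 were detected, with a median of 22.5, 30.8 and 29.3 TPM. The highest were Slfn2, needed for T cell quiescence, at 647, 636 and 649 TPM, the glucocorticoid-induced Tsc22d3 at 256, 289 and 484 TPM and the antiproliferative Btg2 at 185, 228 and 245 TPM. The lowest were Tob1 at 3.72 ± 0.850 (SD, n = 3), Klf4 at 0.523 ± 0.180 and Foxj1, listed at 0 in each library. Slfn2 lay within a narrow range, and Tsc22d3 was highest in library 3. By the chi-square test 8 of 12 genes tested differed between libraries, where 54.3% of all genes tested did.

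Of 13 p53 target genes 10 were detected, with a median of 20.0, 22.4 and 23.9 TPM. They were led by Btg2, which the previous list holds too, the cell death gene Bax at 138, 129 and 118 TPM and the stress gene Sesn1 at 78.2, 92.7 and 103 TPM. Bbc3 had 0.393 ± 0.190 and Phlda3 0.363 ± 0.142 TPM, and Eda2r was listed at 0. Cdkn1a, the p53 target among the CDK inhibitors, had 2.97 ± 0.664 TPM, below Btg2, Bax and Sesn1 and above Bbc3, Phlda3 and Eda2r. By the same test 7 of 10 genes tested differed between libraries, against the same 54.3% of all genes tested.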
